A study of Mus musculus with 39 samples.

Results

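Astrocytes of the nucleus accumbens (NAc) were compared between mice susceptible to chronic social defeat stress and control mice. The comparison used the 8 libraries whose titles name susceptible mice and the NAc and the 7 whose titles name control mice and the NAc, 15 of the 39 libraries of the series. All mice were male, and no genotype, strain or age is given in the labels. Defeated mice met an aggressor again and again, and their later social behaviour set the class. A further 7 NAc libraries came from resilient mice, defeated but not avoidant, and 12 of the remaining libraries, 6 susceptible and 6 control, carry the tissue label PFC, read here as prefrontal cortex. Cells from fresh micropunches were pulled out by beads that bind ACSA-2, a surface mark of astrocytes carried by the product of Atp1b2, and total RNA was made into strand-marked libraries from 500 pg. Nothing in the labels says whether tissue of several mice was pooled. Of 55401 genes counted, 35943 were tested and 10612 of these lay above background, which here means a mean level (FPKM) over the 22 NAc libraries at least 2 times that of chemosensory receptor genes. These 10612 genes, of which 6971 are protein-coding, are the ones described.

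Astrocytes take up glutamate and potassium, supply lactate and cholesterol, and couple neurons to blood vessels. Many of their transmitter receptors act through cyclic AMP and protein kinase A, which phosphorylates the transcription factor CREB. CREB binds a palindromic element, the cAMP response element, in promoters of genes such as Scg2 and Dusp1, and its coactivators are the CRTC proteins, CBP and p300. The series title names astrocytic CREB in the NAc, so its family and its responsive genes are described below beside the genes with the smallest p-values. A rise of the filament protein GFAP is the usual mark of a reactive astrocyte. Oligodendrocytes, the myelin-forming cells, share the tissue with astrocytes and can leave their transcripts in a sort.

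The cAMP response element is shown in the only promoters among those of the 19 matched CREB-responsive genes that held its full form. Each line gives 300 bases, 250 before to 50 after the RefSeq start, of the RefSeq build GRCm38.p6, 5′ to 3′ on the gene's own strand, with the element TGACGTCA in capitals. Scg2, which encodes the granule protein secretogranin II, has it 68 bases before the start (chr1:79439977-79440276, minus strand). Dusp1, which encodes a phosphatase that switches off MAP kinases, has it 143 bases before the start (chr17:26508423-26508722, minus strand).
Scg2: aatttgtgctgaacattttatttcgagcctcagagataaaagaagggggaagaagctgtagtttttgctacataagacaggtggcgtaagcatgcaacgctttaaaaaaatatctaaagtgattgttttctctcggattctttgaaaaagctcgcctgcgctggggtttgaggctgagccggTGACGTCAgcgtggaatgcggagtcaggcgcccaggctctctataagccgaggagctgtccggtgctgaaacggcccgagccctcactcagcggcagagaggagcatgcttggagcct
Dusp1: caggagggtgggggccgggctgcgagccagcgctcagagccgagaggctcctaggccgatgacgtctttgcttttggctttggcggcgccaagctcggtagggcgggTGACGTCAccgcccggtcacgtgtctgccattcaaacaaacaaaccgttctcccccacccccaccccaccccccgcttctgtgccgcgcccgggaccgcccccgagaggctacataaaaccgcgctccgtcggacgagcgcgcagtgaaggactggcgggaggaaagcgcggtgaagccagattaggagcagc

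The NAc libraries of both groups had a high and variable background. Their counts cover whole gene spans, introns included, and receptor genes of the nose, most of them silent outside sensory tissue, had a cover of 35.7%, 58.5% and 59.9% (lowest, median, highest) of an even spread of counts in control libraries and 41.4%, 58.3% and 64.8% in susceptible libraries. The means, 53.2 ± 9.25% (SD, n = 7) and 56.0 ± 7.95% (n = 8), differed by 2.83 points (exact permutation test, two-sided, p = 0.535). Without control replicate 3 the difference was -0.06954 points. Totals ran from 0.941 to 21.9 M counts (M, mega) in control and from 7.68 to 26.8 M in susceptible libraries, and control replicate 3 was the shallowest. Genes above background took 40.8 ± 5.44% of the counts in control and 38.0 ± 4.67% in susceptible libraries (exact permutation p = 0.290). The background percent was a covariate in the comparisons below unless stated otherwise, since 4883 of the 10612 genes above background (46%) followed it at an adjusted p under 0.05 in edgeR's quasi-likelihood test, 4752 of them (44.8%) with lower values at higher background. Among the other genes tested, 4049 of 25331 (16%) did. The tests below therefore adjust for this measure, and equal background below means after this adjustment. Libraries alike in the measure could still differ in the share of counts in genes above background. Control replicate 6, at 58.7%, had a share of 46.6%. Control replicates 2, 5 and 7, at 59.9%, 58.5% and 59.9%, had shares of 36.5%, 35.7% and 36.0%.

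The libraries carried the astrocyte label in their transcripts, together with those of other cells. All 26 astrocyte identity genes were above background, and 0 of them was at 0 in any of the 15 libraries. The same 0 held for the oligodendrocyte, endothelial and neuronal markers, so it does not tell cell types apart. Their summed level was 5592, 7809 and 13593 CPM (counts relative to the library total; lowest, median, highest) in control and 4854, 7389 and 13161 CPM in susceptible libraries. Atp1b2, behind the sorted epitope, stood at 133, 246 and 494 scaled CPM in control and 127, 210 and 360 in susceptible libraries. Of 20 oligodendrocyte genes 18 were above background, and their sum was 1177, 2658 and 5622 CPM in control against 1079, 1791 and 3636 CPM in susceptible libraries. The sums of the 18 microglial, 14 endothelial and 15 neuronal markers had medians of 333, 840 and 1359 CPM in control and 335, 834 and 1280 CPM in susceptible libraries, and much of them lay at or near background, with 4, 7 and 5 members above it. In these bulk samples, fewer cells of a type and less RNA per cell cannot be told apart.

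**Figure D1:**
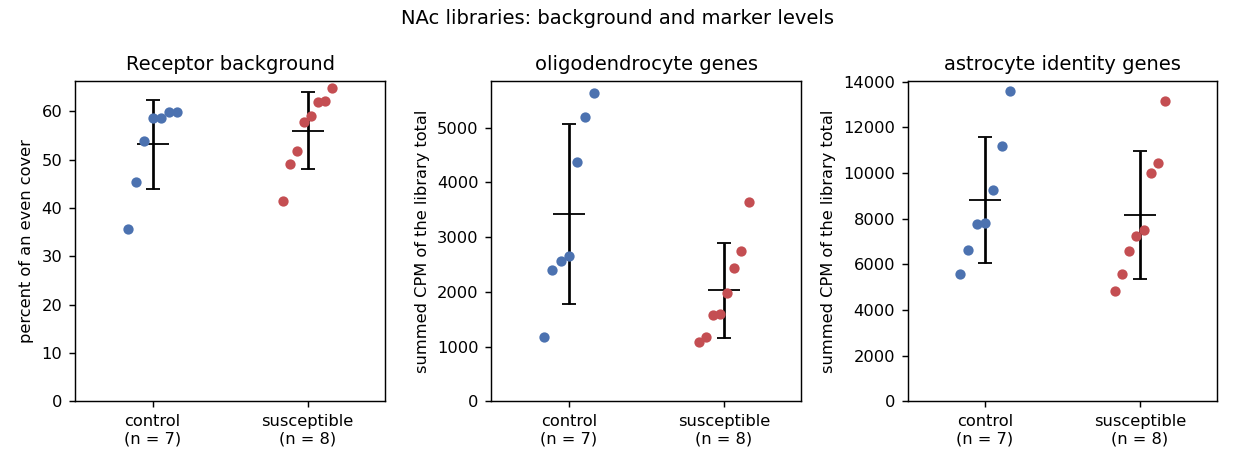
Receptor background in percent of an even cover (left), summed CPM of 20 oligodendrocyte genes (middle) and of 26 astrocyte genes (right), 1 point per library, with the mean and SD as bars for 7 control and 8 susceptible NAc libraries. Background means were 53.2% and 56.0%, and the oligodendrocyte sums reached 5622 CPM in control and 3636 CPM in susceptible libraries.

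No single gene passed the comparison of susceptible with control mice. In edgeR's quasi-likelihood test over 22 NAc libraries, 0 of 35943 genes (0%) had an adjusted p under 0.05, and the smallest was 0.959. At an unadjusted p under 0.05 stood 1391 genes (3.87%). DESeq2, limma-voom and edgeR without the covariate also called 0 genes, and gave 678, 724 and 391 genes above background at that unadjusted p. That threshold was met by 515 of the 10612 genes above background (4.85%), where unchanged genes would give 530.6. In susceptible mice 165 of the 515 (1.55% of 10612) were higher and 350 (3.3%) lower. None of the genes named below, whether taken by rank or as members of a list, is a called change. Estimates were negative for 6399 genes (60.3%) and positive for 4213 (39.7%), with a median log2 fold change of -0.05.

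The predominance of lower estimates depended on the model and on control replicate 6. Of the genes at an unadjusted p under 0.05, 32.0% were higher, against 75.4% with 2 principal components of other cells' markers added (353 higher, 115 lower). The share was 69.8% in limma-trend on log2(FPKM + 0.5), 71.4% after subtraction of the background, 44.6% in limma-voom and 60.2% without control replicate 6 (198 higher, 131 lower). The number of genes at that p lay between 322 without susceptible replicate 7 and 763 without control replicate 7, and was 329 without control replicate 6. Of 60 genes named below or by the same rule with a negative estimate, 29 were over 1.5 times smaller or positive without control replicate 6, as were 1 of 29 with a positive one. Of 1352 genes at least 5 times above background, a set chosen after seeing the data, 73 (5.40%) had an unadjusted p under 0.05. Unchanged genes would give 67.6. Of the 73, 63 were lower and 10 higher, and the median over all 1352 was -0.19.

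**Figure D2:**
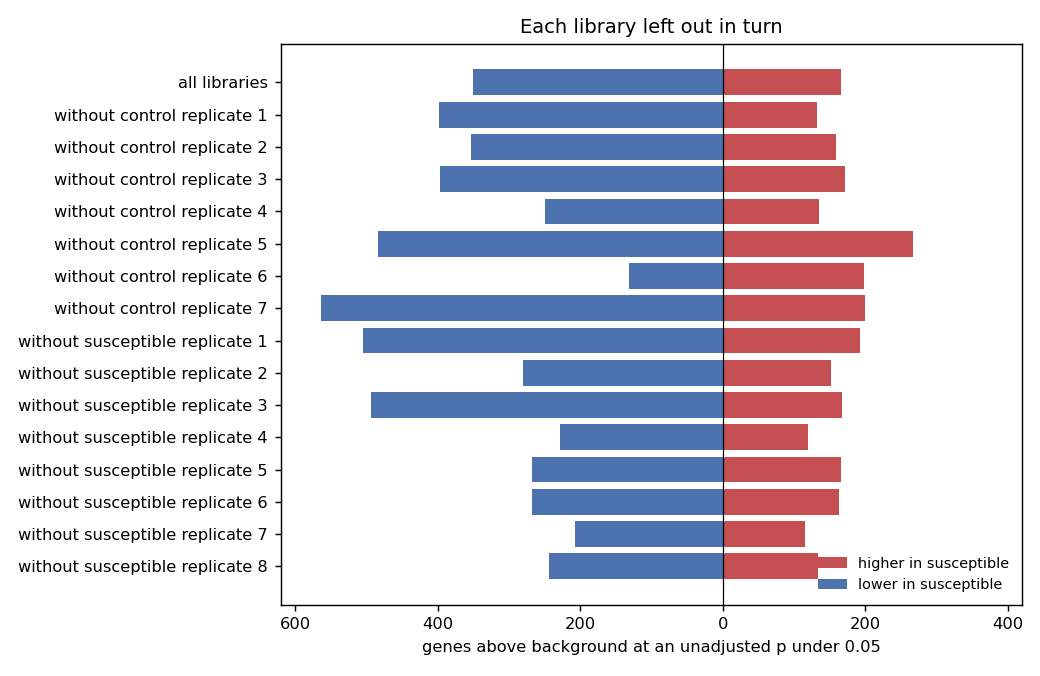
Genes above background at an unadjusted p under 0.05, with those higher in susceptible mice to the right and those lower to the left, for all libraries and with each NAc control or susceptible library left out. The full comparison has 165 and 350, and the bar without control replicate 6 is the one with more genes higher (198) than lower (131).

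**Figure D3:**
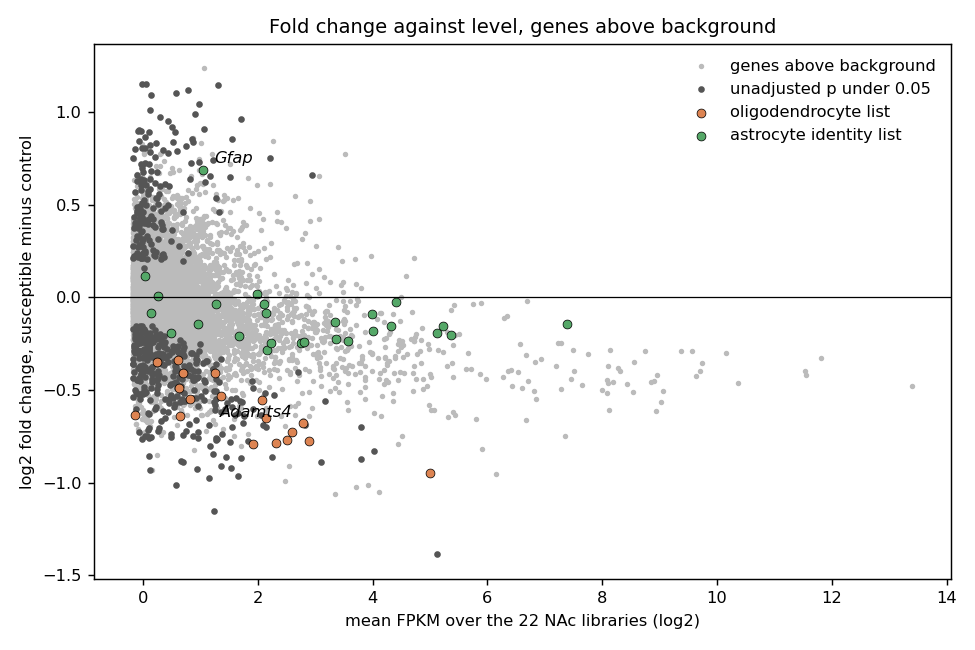
Log2 fold change, susceptible minus control, against mean FPKM (log2) for the 10612 genes above background, with genes at an unadjusted p under 0.05 in dark grey, 18 oligodendrocyte genes in orange and 26 astrocyte identity genes in green. All 18 oligodendrocyte genes lie below 0 and Gfap lies apart from the other astrocyte genes at 0.69.

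Gfap, which encodes the intermediate filament of astrocytes, had the smallest p of all genes above background in the fit with the background covariate (chromosome 11, 102887336 to 102900912, mm10). It stood at 24.9, 28.9 and 57.5 scaled CPM (lowest, median, highest) in susceptible and 17.0, 22.2 and 40.5 in control libraries. All 8 susceptible libraries were above the control median and 6 of 7 control libraries lay below every susceptible one. The exception was control replicate 3, the shallowest, which held 34 Gfap counts. Such numbers of libraries, here and below, are given without the share over all genes unless stated. They do not by themselves set a gene apart. The log2 fold change of Gfap at equal background was 0.69 ± 0.16 (SE; edgeR, adjusted p = 0.959), and 0.68 without control replicate 3. It ranged from 0.60 to 0.75 with single libraries left out and was 0.84 with the marker components. Without the background covariate it was 0.67, and the unadjusted p of Gfap was 0.0206 in place of 0.000226 (edgeR). In that fit Rcan2 (0.0028), Tsku (0.0034) and Adamts4 (0.0066) had smaller unadjusted p-values, so the lead of Gfap depended on the covariate. In a fit of only the genes above background the smallest adjusted p was 0.317. Of the 33 listed genes of reactive astrocytes 10 were above background, Gfap included. The other 9 were divided, 4 higher and 5 lower, with a median of -0.06 beside -0.05 over all genes above background, and of 0.01 without control replicate 6 and 0.06 with the marker components. Serpina3n, a secreted protease inhibitor, stood at 0.32 ± 0.16, and the glycosyltransferase gene Ggta1 at 0.20 ± 0.10. Vim, the other filament of reactive astrocytes, was at 0.20 and the chaperone gene Hspb1 at -0.11.

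The other 7 genes leading the higher side stood between 2.01 and 2.89 times the background, near the limit of 2. Of the 12 genes named by rank on this side, 7 (Aacs, Tsku, Zic4, Syt17, BC048507, Cldn13 and Il3) had a control mean below that limit and counted as above background only through defeated mice. Of the 515 genes at an unadjusted p under 0.05, 69 higher and 297 lower ones had a mean over the limit in control and in susceptible libraries alike. Aacs, an acetoacetyl-CoA synthetase that feeds ketone bodies into lipid synthesis, was at 35.8, 47.5 and 58.5 scaled CPM in susceptible and 30.2, 36.9 and 42.6 in control libraries. The groups overlapped, with 6 of 8 susceptible libraries above every control one (log2 0.35 ± 0.10). Tsku, a secreted leucine-rich protein (chromosome 7, 98350668 to 98361328), was at 11.0, 12.1 and 14.3 against 2.38, 9.17 and 10.8 scaled CPM (0.43 ± 0.13). It was 1 of 2 genes of 10612 whose groups did not overlap with higher susceptible values (0.0188%), the other being the predicted gene Gm23332, and 0 genes were fully separated in the lower direction (0%). Tsku averaged 0.750 FPKM in control and 1.15 in susceptible libraries, with the limit at 0.883, so its place among these genes is no support for the separation. Control replicate 3 was the lowest Tsku library with 2 counts, and without it the estimate was 0.38.

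Zic4, a zinc finger transcription factor, was at 19.8, 28.5 and 52.0 scaled CPM in susceptible and 12.3, 20.1 and 25.8 in control libraries. In 7 of 8 susceptible libraries it lay above every control one (log2 0.61 ± 0.19). Its annotated span overlaps that of Zic1, so reads of the 2 genes may be mixed. Disp3, a patched-related membrane protein, stood at 0.39 ± 0.12, Sfrp1, a secreted Wnt inhibitor, at 0.31 ± 0.11, and Syt17, a synaptotagmin, at 0.28 ± 0.09. Fam131a stood at 0.37 ± 0.12 and overlaps Clcn2, a chloride channel gene that stood at 0.28 ± 0.11. For each of these the adjusted p was 0.959. With predicted and antisense genes left out, the largest estimates on the higher side came from genes of very few reads, at most 79 counts in a library and 0 in control replicate 3. They were BC048507 at 0.78 ± 0.31, the hair keratin-associated gene Krtap6-2 at 0.74 ± 0.27, the claudin Cldn13 at 0.72 ± 0.30 and the cytokine Il3 at 0.70 ± 0.24.

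**Figure D4:**
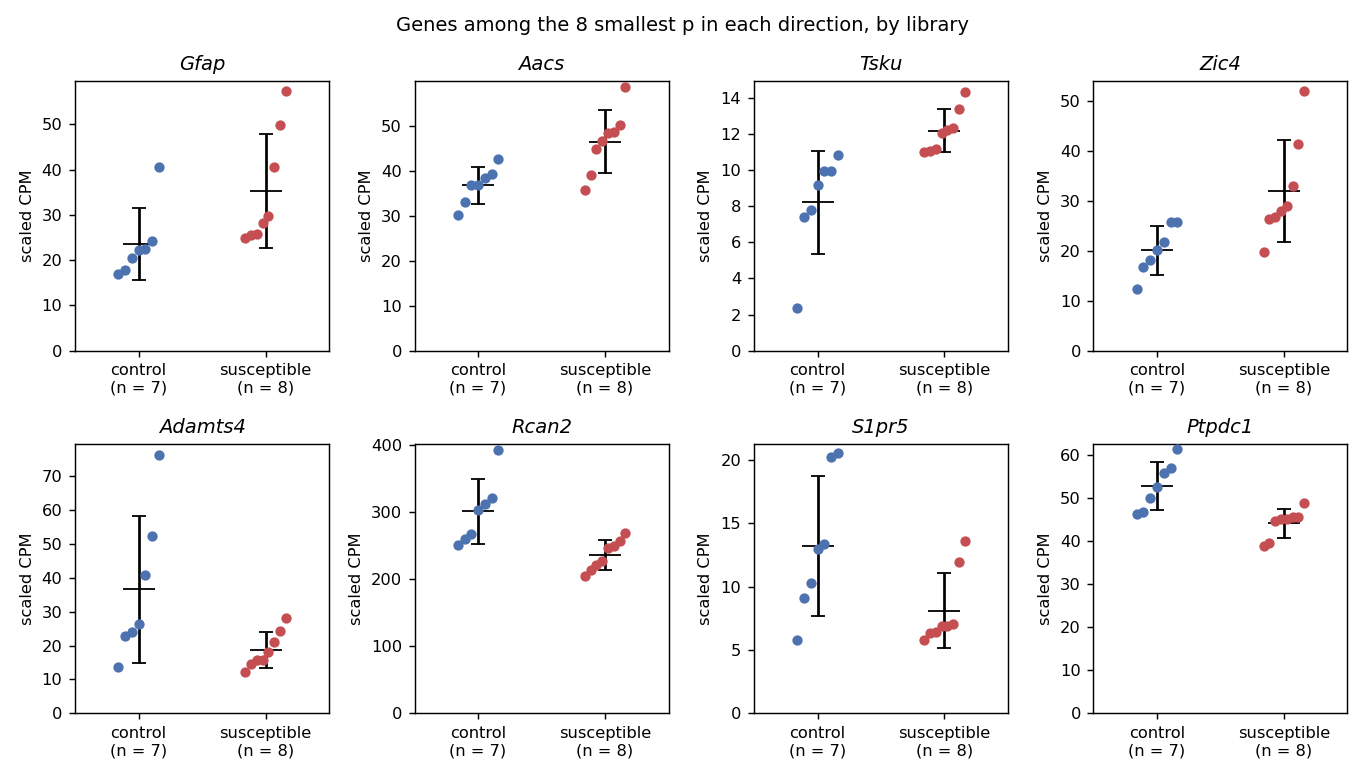
Scaled CPM of 4 genes with higher and 4 with lower values in susceptible mice, 1 point per library, with the mean and SD as bars for 7 control and 8 susceptible NAc libraries. Tsku does not overlap between the groups (11.0 and above against 10.8 and below), and Adamts4 spreads from 13.7 to 76.2 in control libraries alone.

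On the lower side, the genes with the smallest p were mostly spread widely among control libraries. Adamts4, a protease of extracellular matrix proteoglycans (chromosome 1, 171250421 to 171260637), was at 12.3, 17.0 and 28.0 scaled CPM in susceptible and 13.7, 26.4 and 76.2 in control libraries. Control replicates 3, 4 and 6 were the highest and control replicate 7 the second lowest of all 15. Its log2 fold change was -0.69 ± 0.19 (edgeR, adjusted p = 0.959) and -0.32 with the marker components. Rcan2, a regulator of calcineurin (chromosome 17, 43801351 to 44039516), was at 204, 236 and 269 scaled CPM in susceptible and 250, 302 and 392 in control libraries. In 6 of 8 susceptible libraries it lay below every control one (-0.30 ± 0.09, and -0.16 with the marker components). Ptpdc1, a phosphatase gene, was at 38.9, 45.2 and 49.0 against 46.5, 52.8 and 61.6 scaled CPM (-0.24 ± 0.08). Of 8 susceptible libraries 7 were below every control one, and with the marker components the estimate was -0.18.

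S1pr5, a sphingosine phosphate receptor of oligodendrocytes, was at 5.80, 6.87 and 13.6 scaled CPM in susceptible and 5.82, 12.9 and 20.5 in control libraries (log2 -0.56 ± 0.17). The groups overlapped, with 7 of 8 susceptible libraries below the control median. Enpp4, an ectonucleotide phosphodiesterase, stood at -0.62 ± 0.19, Lzts2, which overlaps Pdzd7, at -0.61 ± 0.18, Atp1b3, a sodium pump subunit, at -0.50 ± 0.16 and Sec14l5 at -0.48 ± 0.14. With the marker components these 4 stood between -0.28 and -0.19. Large negative estimates belonged to the arrestin-related Arrdc3 at -0.92 ± 0.32, the mitochondrial arginine tRNA mt-Tr at -0.87 ± 0.35 and the tubulin Tubb4a at -0.83 ± 0.39. The tRNA had at most 24 counts in a library.

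Oligodendrocyte genes had lower values in susceptible mice as a group, without a called member. All 18 above background had negative estimates, with a median of -0.64. Of these, 10 had an unadjusted p under 0.05, where all genes above background gave 3.3% in that direction. The members share libraries and a cell type, so they are not independent and their number is no separate support. Their mean log2 level had an SD between libraries of 0.77 in control and 0.63 in susceptible mice. The median of the list was -0.53 for resilient minus control and -0.10 for susceptible minus resilient. Tspan2, a tetraspanin of myelinating cells, was at 52.6, 89.6 and 145 scaled CPM in susceptible and 64.3, 120 and 261 in control libraries (log2 -0.64 ± 0.25). Control replicates 3, 4 and 6 lay above every susceptible library, while control replicate 7 was the third lowest of the 15. Bcas1, a myelin-associated protein of maturing oligodendrocytes, stood at -0.35 ± 0.12, Aspa, which cleaves N-acetylaspartate, at -0.49 ± 0.21 and Ugt8a, needed for myelin galactolipids, at -0.63 ± 0.27. Sox10, the transcription factor of the lineage, stood at -0.54 ± 0.24 and Olig1 at -0.59 ± 0.36. Without control replicate 6 the median of the list was -0.42 and 1 member had an unadjusted p under 0.05. With the marker components, which hold this list's own signal, the median was -0.15.

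Astrocyte identity genes other than Gfap lay close to or slightly below control. Of these 25, 22 had negative and 3 positive estimates, with a median of -0.16. Aldh1l1, a folate enzyme, stood at 0.01 ± 0.11, the glutamate transporter Slc1a3 at -0.13 ± 0.28, the water channel Aqp4 at -0.28 ± 0.26, Atp1b2 at -0.19 ± 0.30 and the gap junction gene Gjb6 at -0.25 ± 0.24. The median of the 25 was 0.15 without control replicate 6 and 0.14 with the marker components, so its sign turned with that library. Control replicate 6 had the highest sum of astrocyte genes of all 15 libraries. Of the functional groups of astrocytes, glutamate and GABA handling had 2 higher and 9 lower of 11 members, with a median of -0.13. Water, potassium and gap junction channels had 2 higher and 11 lower of 13 (median -0.14), and 1 in each direction had an unadjusted p under 0.05, Clcn2 and the chloride transporter Slc12a2 at -0.56 ± 0.26. These medians were 0.13 and 0.08 without control replicate 6. Slc12a2 then stood at -0.38 and Clcn2 at 0.26, and with the marker components they stood at -0.15 and 0.29.

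The CREB family showed no called difference. Creb1 was at 39.5, 55.8 and 64.2 scaled CPM in susceptible and 43.6, 55.2 and 92.3 in control libraries, with the 3 highest values in control replicates 3, 4 and 6. Its log2 fold change was -0.23 ± 0.14 (edgeR, adjusted p = 0.959), and with single libraries left out it lay between -0.29 and -0.08, the latter without control replicate 6. With the marker components it was 0.02. Creb1 stood at 1.73 times the background and its relative Crem at 1.46 times, both under the threshold of 2, so neither counts among the genes above background. Crem stood at -0.03 ± 0.11 and Atf1 at -0.01 ± 0.09. Of 15 members of the family and its coactivators 9 were above background, 2 higher and 7 lower with a median of -0.08, which was 0.01 without control replicate 6 and 0.02 with the marker components. The coactivator Crtc2 stood at 0.24 ± 0.11, and Crebbp, which encodes CBP, at -0.23 ± 0.13.

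Genes of cyclic AMP signalling and CREB-responsive genes were divided in direction. Of 25 genes of the cyclic AMP and protein kinase A list 15 were above background, 4 higher and 11 lower, with a median of -0.04 that was 0.00 under scaling from the genes above background and 0.02 with the marker components. Pde4b, a phosphodiesterase that degrades cyclic AMP, was at 402, 655 and 1009 scaled CPM in susceptible and 491, 869 and 1479 in control libraries. The groups overlapped, with 7 of 8 susceptible libraries below the control median (log2 -0.54 ± 0.22). Without control replicate 6 Pde4b stood at -0.35, and with the marker components at -0.14. The adenylyl cyclase Adcy5 stood at -0.27 ± 0.12 and the kinase subunit Prkacb at -0.27 ± 0.15. Adcy5 is also a marker of striatal projection neurons, of which 5 of 6 above background had negative estimates. Without control replicate 3, the highest neuronal library, Adcy5 stood at -0.20.

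Of 24 CREB-responsive genes 15 were above background, 5 higher and 10 lower, with a median of -0.08 (0.03 with the marker components). Fos, an immediate early transcription factor, stood at 0.34 ± 0.24 and Arc, a synaptic immediate early gene, at -0.36 ± 0.22. Scg2, whose promoter is printed above, was at 3.65, 4.79 and 8.13 scaled CPM in susceptible and 2.88, 5.68 and 47.6 in control libraries. Its highest value was that of control replicate 3, and the log2 fold change of -0.41 ± 0.32 was -0.23 without it. Dusp1 was not above background. The full element occurred in 588 of 32851 RefSeq promoters (1.79%), read on both strands, which are the same for a palindrome. Of the 5923 genes above background that matched a promoter, 205 (3.46%) had it in any of their promoters. The first share counts promoters and the second counts genes, so they cannot be compared directly. Genes with the full element had a median log2 fold change of -0.08 and those without it -0.05. Of the 205, 9 (4.39%) had an unadjusted p under 0.05, against 298 of 5718 (5.21%) without it. The shorter form TGACG, which the full form contains, was present on either strand in 6837 promoters (20.8%), and the medians with and without it were -0.06 and -0.05.

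Lists of metabolism and stress had medians between -0.45 and 0.00. All 12 tested genes of mitochondrial DNA above background had negative estimates (median -0.45), 1 of them at an unadjusted p under 0.05. The median was -0.14 without control replicate 6 and 0.02 with the marker components. Mt-Co3, an oxidase subunit, stood at -0.77 ± 0.36 on at most 100 counts in a library. Mt-Nd6, a subunit of complex I on the other strand, was at 58.8, 143 and 217 scaled CPM in susceptible and 121, 204 and 369 in control libraries (-0.46 ± 0.28). Reads of these genes can match nuclear copies, and neighbouring mitochondrial genes overlap. Of 33 cytosolic ribosome genes 28 had negative estimates (median -0.15), as had 21 of 26 nuclear respiratory chain genes (-0.14). For heat shock and unfolded protein genes it was 20 of 24 (-0.18), with Xbp1, a regulator of the secretory pathway, at -0.44 ± 0.18. With the marker components the medians of these 3 lists were 0.16, 0.06 and 0.07, and without control replicate 6 they were 0.03, 0.03 and -0.02.

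Cholesterol and fatty acid synthesis was divided, with 11 higher and 10 lower of 21 members and a median of 0.00. Sqle, the squalene epoxidase, was at 17.6, 29.0 and 43.4 scaled CPM in susceptible and 21.7, 24.9 and 30.5 in control libraries. The groups overlapped, with 5 of 8 susceptible libraries above the control median (log2 0.21 ± 0.14). Scd2, a fatty acid desaturase, stood at -0.44. With the marker components all 21 were positive, 11 at an unadjusted p under 0.05, with a median of 0.21. In that fit 353 of all 10612 genes above background were higher at that p, and their overall median was 0.04. Without control replicate 6, 19 of the 21 were positive with a median of 0.22, beside 0.01 over all genes above background. Members of 1 pathway are not independent of each other. Among lipoprotein genes, the receptor Vldlr stood at -0.44 ± 0.14, its relative Lrp8 at 0.21 ± 0.09 and the sterol exporter Abcg1 at -0.23 ± 0.10. Of synapse-forming factors, Thbs4, a thrombospondin, stood at 0.41 ± 0.19 and Il33, a cytokine that acts on microglia, at -0.49 ± 0.18. Calcineurin itself was represented by Ppp3ca at -0.24 ± 0.12, below the control median in 8 of 8 susceptible libraries, and at -0.13 without control replicate 6 and -0.02 with the marker components.

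Signals that reach astrocytes in stress showed no called difference. The list medians ran from -0.22 (thyroid hormone handling) to 0.10 (microglial markers). Of 16 glucocorticoid response genes 10 were above background, 1 higher and 9 lower with a median of -0.15, which was -0.05 without control replicate 6 and 0.05 with the marker components. Klf9, a transcription factor induced by glucocorticoids, stood at -0.23 ± 0.15, and at -0.09 without control replicate 6. Of 20 adrenergic, adenosine and other receptor genes 9 were above background, 3 higher and 6 lower with a median of -0.15, which was 0.04 without control replicate 6. The adenosine receptor gene Adora2a, named as a marker of striatal projection neurons, stood at 0.15 ± 0.11, above the control median in 8 of 8 susceptible libraries. Immediate early genes had 6 higher and 7 lower of 13 (median -0.03), with the Fos relative Fosl2 at 0.31 ± 0.15. Circadian clock genes had 7 higher and 6 lower of 13 (median 0.03). Of the interferon response 6 of 16 genes were above background, 5 of them higher with a median of 0.08, and Irf7, an interferon regulator, stood at 0.43 ± 0.23. Microglial markers had 4 of 18 members above background, 3 higher and 1 lower, and the lysosomal protein gene Cd68 stood at 0.36 ± 0.23. Crym, which binds thyroid hormone in the cytosol, stood at -0.69 ± 0.40, below the control median in 8 of 8 susceptible libraries, and at -0.28 without control replicate 6 and -0.41 with the marker components. None of these 7 lists, thyroid hormone handling included, held a member above background at an unadjusted p under 0.05.

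**Figure D5:**
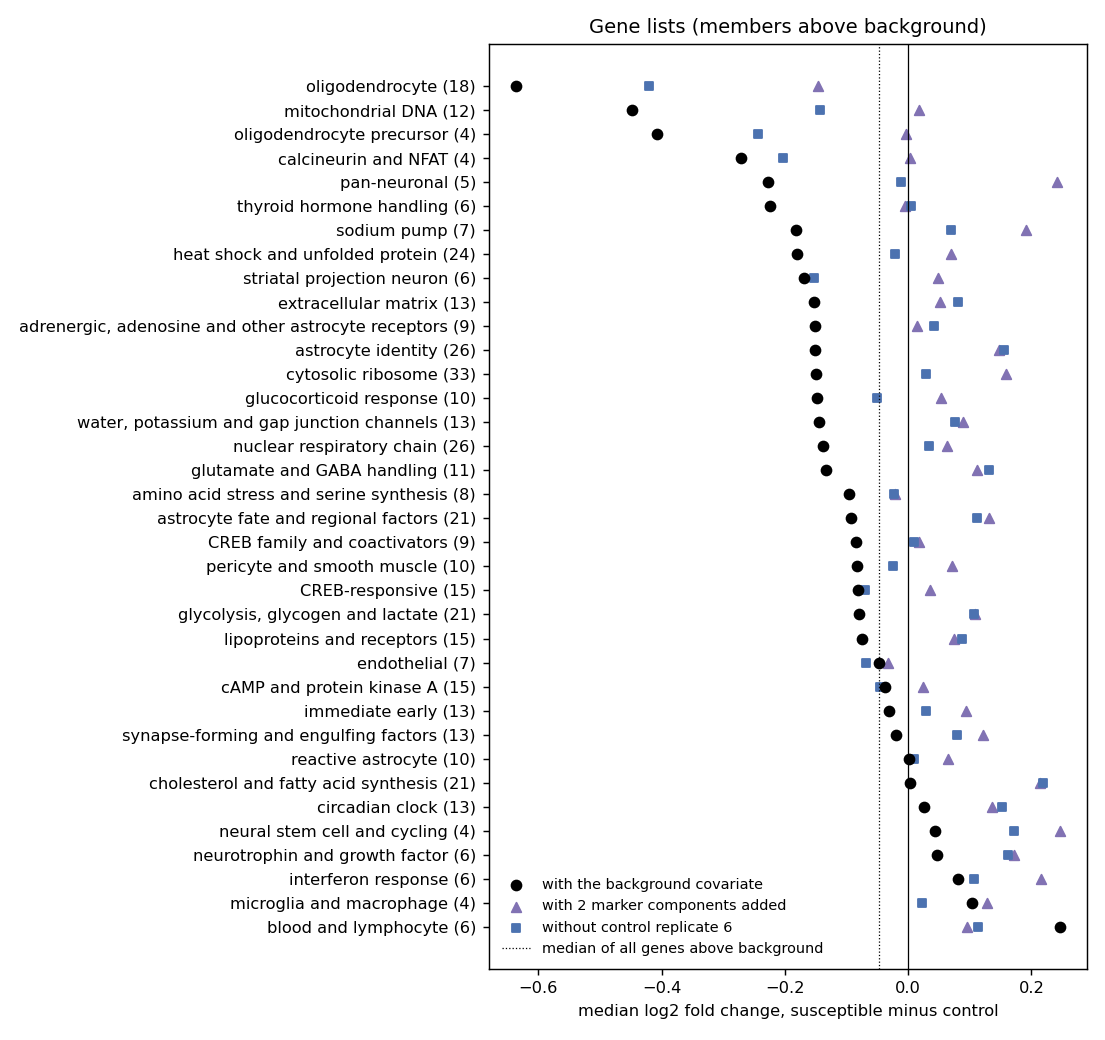
Median log2 fold change, susceptible minus control, of each gene list with at least 4 members above background (number in brackets) in the comparison at equal background (circles), with 2 marker components added (triangles) and without control replicate 6 (squares). Oligodendrocyte genes are lowest under each of the 3 (-0.64, -0.15 and -0.42), while astrocyte identity genes move from -0.15 to 0.15 and 0.16.

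Susceptible and resilient mice were compared in the same fit to see whether the leading genes set the susceptible apart from other defeated mice. By edgeR 0 of 35943 genes were called, and 284 of 10612 genes above background had an unadjusted p under 0.05 (2.68%). Gfap differed by 0.08 ± 0.17 log2 between these groups, and resilient libraries stood at 0.60 ± 0.18 over control at equal background. Without that adjustment resilient libraries had a median of 18.7 scaled CPM, below the control median of 22.2, and Gfap fell by 0.47 log2 per 10 points of background, which averaged 64.6% in resilient libraries. Tspan2 differed by -0.16 ± 0.28, Adamts4 by -0.09 ± 0.20, Zic4 by 0.02 ± 0.20 and Ptpdc1 by 0.01 ± 0.08. For Tsku the difference was 0.28 ± 0.14, for Aacs 0.17 ± 0.11 and for Rcan2 -0.16 ± 0.09. Larger differences were seen in Adcy5 (-0.38 ± 0.13), in Il3 (0.72 ± 0.25) and in Krtap6-2 (0.74 ± 0.27). Il3 and Krtap6-2 had at most 79 counts in a susceptible or control library. They were named for large folds over control, and the same susceptible libraries enter this contrast. A positive difference is favoured by that choice and is no separate support. Mt-Co3 differed by -1.47 ± 0.37, on few counts. For all of these genes the adjusted p was 1.

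The same contrast in PFC was set against that in the NAc through an interaction over all 39 libraries. In edgeR 0 of 38171 genes passed and 1152 had an unadjusted p under 0.05, of which 374 were among the 10612 genes above background in the NAc (3.52%). Gfap stood at 0.50 ± 0.20 in PFC, and its difference between regions was 0.19 ± 0.27. Tsku at 0.42 ± 0.17 and Zic4 at 0.50 ± 0.19 in PFC also differed little from their NAc estimates, by 0.02 ± 0.22 and 0.12 ± 0.26. Rcan2 was at 0.12 ± 0.09 in PFC, with an interaction of -0.41 ± 0.12, and Adamts4 at 0.07 ± 0.24, with -0.82 ± 0.31. Fam131a stood at -0.31 ± 0.17 in PFC (interaction 0.72 ± 0.24) and Syt17 at -0.21 (interaction 0.51). Rcan2, Adamts4, Fam131a and Syt17 were named for a small p in the NAc contrast, which is part of the interaction. That choice alone favours interactions away from 0, so these values are no support for a difference between regions. By p-value, the leading interaction among the named genes was that of Acta2, a smooth muscle actin, with -0.26 ± 0.16 in the NAc and 0.96 ± 0.20 in PFC (interaction -1.18 ± 0.26). The adjusted p of these interactions was 1 in edgeR. Each library carries its own mouse number, which is the same as its sample number, and the interaction treats all libraries as separate mice. No label says more on whether NAc and PFC libraries of consecutive numbers share an animal.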

How the data were processed

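RNA of sorted astrocytes was sequenced in 39 libraries, and the 22 NAc libraries were fitted here. The deposited values are whole-number counts per gene, made by the authors with featureCounts on mm10 per the submitters' processing notes. No source used here names the aligner, the annotation, versions or a strand setting, so genes whose spans overlap others (Adamts4, Fam131a, Lzts2 and Zic4 among those leading) are uncertain. The deposited FPKM are these counts per gene length and library total. The implied length equalled the whole gene span of GENCODE M21 within a relative 1e-06 for 54229 of 54229 genes compared. Of the identifiers, 55141 have a name there and 260 do not. No 2 libraries were identical.

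Background is the FPKM of 1479 protein-coding olfactory, vomeronasal and trace-amine receptor genes divided by that of an even cover (0.764), and genes above background have a mean FPKM of at least 0.883. Counts were tested with edgeR 4.0.16 in R 4.3.3 (quasi-likelihood, robust, trimmed-mean scaling, default filter by group), with 3 groups and the background percent as covariate, and Benjamini-Hochberg adjustment over all genes tested. Fold changes are log2 values with SE. The p-values of the NAc fit are two-sided and set a difference against the spread between libraries, estimated over the 3 groups. Each library has its own mouse number, and the labels do not say whether mice were pooled. Scaled CPM uses the trimmed-mean factors. Script steps were tested on simulated data. The marker components are the first 2 principal components of the other cells' markers, oligodendrocyte genes included.

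Named genes are, above background and leaving out predicted, pseudogene, antisense and multi-copy receptor, haemoglobin, immunoglobulin and H2 symbols, the 8 smallest p and the next 4 largest fold changes at an unadjusted p under 0.05 in each direction, up to 4 members by smallest p of each list described, Creb1, Crem and Atf1, and 4 astrocyte markers (Aqp4, Slc1a3, Atp1b2, Aldh1l1). Further list members given in passing (Vim, Hspb1, Scd2) were chosen after their values were seen. A few genes the rule would name are not reported here. The members, lists and the background measure were chosen with earlier results of these data known. Alternatives were other scalings and filters, DESeq2 1.42.0, limma 3.58.1, other sets of libraries, the replicate block, marker components and each library left out.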

Additional observations from a re-analysis of the deposited data

Results flagged for a closer look

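In 5 of 66 groups tested (31 genes, the background and the totals, in control and susceptible libraries) 1 library stood apart from the others, by Dixon's test at the 95% level. Chance alone flags about 1 group in 20. Gfap in control replicate 3 was at 40.5 scaled CPM, against 24.2 in the next control library, and that replicate was the shallowest. Tsku in the same library was at 2.38 against 7.41. Disp3 in susceptible replicate 4 was at 100.6 against 70.9. Fam131a was at 15.1 in control replicate 6 against 11.3 in the next, and at 16.3 in susceptible replicate 4 against 14.2.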

How the results depend on the processing

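None of the alternatives called a gene, and the smallest adjusted p was 0.145 in limma-voom. Of 515 genes above background at an unadjusted p under 0.05, 313 also had a fold above 1.3, and 73 lay at least 5 times above background, a limit chosen after seeing the data. With each library left out the count ran from 322 to 763. Of 92 genes tried under 29 alternatives 78 kept 1 direction. With the marker components Creb1 turned to 0.020, Crem to 0.078, Atf1 to 0.024, Crebrf to 0.0079, Dag1 to 0.044, Gpc5 to 0.00060, Hsp90aa1 to 0.067, Nfix to 0.032, Atp1b2 to 0.198, Aqp4 to 0.083, Slc1a3 to 0.203, Hspb1 to 0.068 and Scd2 to 0.0225, and the pan-neuronal median moved to 0.24. In limma-voom Crem was at 0.0015, Dag1 at 0.0011, Gpc5 at 0.013, Atp1b2 at 0.083, Aqp4 at 0.036 and Slc1a3 at 0.111. Crem was also at 0.010 with scaling from genes above background and 0.023 on log2(FPKM + 0.5), where Slc1a3 was at 0.015. Aldh1l1 was at -0.038 without the covariate, -0.0013 with only control and susceptible libraries and -0.012 after background subtraction. Atf1 was at 0.015 with only genes above background, 0.033 without the covariate as well, 0.015 with their scaling, 0.0025 without a count filter, 0.00047 with all 39 libraries, 0.021 on log2(FPKM + 0.5) and 8.04e-05 after background subtraction. With single libraries left out Crem lay between -0.086 and 0.040, Atf1 between -0.037 and 0.0094, Gpc5 between -0.284 and 0.027, Atp1b2 between -0.276 and 0.155, Aldh1l1 between -0.041 and 0.127, Aqp4 between -0.379 and 0.086, Slc1a3 between -0.207 and 0.185, Hspb1 between -0.230 and 0.0070 and the background difference between -0.070 and 4.92 points. The cause of these turns was not tested.

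With the replicate block 0 genes were called and 401 above background had an unadjusted p under 0.05. Whether the replicate numbers pair the libraries was not settled. Same-numbered control and susceptible libraries correlated between -0.24 and 0.50, and 0 of 7 matched their own number best. With 7 pairs and no adjustment for background, this check cannot exclude a pairing. Depth was least in control replicate 3, which limits genes of few counts there.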
